A study of Danio rerio with 12 samples.

Results

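The effect of the synthetic glucocorticoid beclomethasone on whole zebrafish embryos was measured at 72 hours post fertilisation (hpf) on 3 arrays of treated embryos and 3 arrays of embryos given only the solvent dimethyl sulfoxide (DMSO). These 6 arrays were taken by the stage and treatment named in their sample labels, out of 12 in the series, and they alone entered the comparison. The remaining arrays hold the same treatments at 24 hpf and are used below only where the stages are compared. The embryos were AB wild-type animals with no transgene or mutation named. One group was kept in 25 µM beclomethasone and the other in 0.1% DMSO, each for 3 h, and the embryos were then frozen; the labels do not say whether the beclomethasone bath also held DMSO. The experiments are described as triplicates without a statement that each came from a separate clutch, so the p-values below measure the spread between these samples, which may be technical. Total RNA of whole embryos was labelled with a single dye and hybridised to Agilent oligonucleotide arrays.

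Beclomethasone is a ligand of the glucocorticoid receptor, a nuclear receptor that is held in the cytoplasm by heat shock chaperones until hormone binds. The bound receptor enters the nucleus, binds DNA and raises or lowers the transcription of nearby genes, and it also restrains inflammatory transcription factors through contact with them. In vertebrates the natural ligand, cortisol in fish, adjusts glucose and amino acid metabolism, immune signalling, growth and, in fish, salt and water balance. In zebrafish the larva begins to make its own cortisol around the time of hatching, and cortisol feeds back on the hypothalamus and pituitary to limit its own release.

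Levels are given as log2 of the processed probe signal minus the 75th percentile of that array on the same scale, so a level of 0 is a signal at that percentile, and levels are compared between samples only for the same probe. Between 35556 and 37401 of 43803 measuring spots were well above background on the 72 hpf arrays, no measuring spot was saturated, and the 75th percentile lay between 1002 and 1134 signal units. After probes of a named gene had been reduced to the brightest one, 24907 features were tested, of which 11910 were genes with a symbol and 12997 were probes without one. The treated arrays correlated with each other at Pearson r of 0.994 to 0.995 across features, and the DMSO arrays with each other at 0.988 to 0.989; features are not independent replicates. DMSO replicate 3 stood nearest to the treated arrays: on the first principal component, which held 52.8% of the variance, it scored 18.5, the other DMSO arrays 39.4 and 43.5, and the treated arrays between -37.1 and -28.7. It also shared its slide with all 3 treated arrays, while DMSO replicates 1 and 2 lay on another slide. Only that shared slide holds both groups, so an estimate with slide as a block is the treated mean minus DMSO replicate 3. The authors' deposited value table carries treatment names opposite to those of the scanner files: each of its 72 hpf columns matched the scanner array of the other treatment and the same replicate number, with r of 0.989 to 0.997 over 13879 probes, against 0.806 to 0.827 for the array of its own name. The directions below follow the scanner files, and every sign would turn under the names in that table. As a check of the stage, 22 of 23 markers of larval differentiation were higher at 72 hpf than at 24 hpf in both treatments. The exception was *crygm2d21*. Most of the markers were lens crystallins of the *crygm2d* family, which are related genes. The others were cone opsin and transducin genes (*opn1mw1*, *opn1lw2*, *gnat2*), a liver gene (*fabp10a*) and a pancreas gene (*prss1*). Whole embryos were measured, so fewer cells of a type and less RNA per cell cannot be told apart.

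Beclomethasone changed 3465 features (13.9% of those tested) at an adjusted p below 0.05 in limma's moderated test with Benjamini-Hochberg adjustment. Of these, 1869 (7.5%) were higher and 1596 (6.41%) were lower with beclomethasone. That balance turned with the scaling: quantile normalisation gave 1767 higher and 1967 lower, centring on the median 1656 and 1931, and the authors' deposited table, with its columns matched to the scanner arrays, 1723 and 1844. Changes fitted as at least 2-fold were mostly rises: 569 features (2.28%) were called and higher by that much, against 130 (0.522%) lower. Both counts include features with no array well above background in 1 group, for which only a bound on the fold can be given. The counts were not taken over features measured in both groups alone. The median log2 fold change over all features was 0.00. Among genes with a symbol, 855 rose and 958 fell, with 258 and 61 of them past 2-fold by the same way of counting. No called feature overlapped between the 3 treated and the 3 DMSO arrays; among all features 17.0% lay without overlap on the higher side and 18.6% on the lower side. With replicate number as a block 2498 features were higher and 2537 lower. With slide as a block 1169 features were called, 790 higher and 379 lower.

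Classical targets of the glucocorticoid receptor had the largest share of rises among the 36 gene lists. For this and every list below, counts of calls are to be read beside 7.5% of all features called higher and 6.41% called lower. Of 36 tested members of a list of receptor targets known mainly from mammals, 27 rose, 2 fell (*fkbp4* and *cisha*, neither of them called without beclomethasone replicate 1 or 2 or with slide as a block) and 7 were not called, and the median log2 fold change was 1.23 beside 0.00 over all features. *fkbp5*, which encodes a co-chaperone that lowers the hormone affinity of the receptor, stood at 3.47, 3.48 and 3.51 on the treated arrays and at -1.04, -1.27 and -0.42 on the DMSO arrays. The treated values lay within 0.04 of each other and far above every DMSO value, a log2 fold change of 4.40 ± 0.22 (SE, n = 3 each; adjusted p = 0.000383), or 21.1-fold. *klf9*, a Krüppel-like transcription factor, was at 0.63, 0.88 and 0.40 with beclomethasone and at -3.12, -3.15 and -2.87 with DMSO, 12.8-fold higher. *tsc22d3*, which encodes the anti-inflammatory leucine zipper protein GILZ, was at 3.38, 3.32 and 3.42 in treated embryos and 1.28, 1.08 and 1.40 in DMSO embryos, 4.34-fold higher. The kinase gene *sgk1* was at 3.74, 3.75 and 3.82 in treated embryos and 2.29, 2.45 and 2.41 in DMSO embryos, 2.61-fold higher. None of these genes overlapped between groups, and each stayed called when any 1 array was left out and with slide as a block, where *fkbp5* still differed by 3.91.

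*hsd11b2*, which encodes the enzyme that turns cortisol into inactive cortisone, was at 4.18, 4.12 and 4.15 in treated embryos and 1.02, 0.88 and 1.20 in DMSO embryos, a rise of 3.12 ± 0.09 on the log2 scale (adjusted p = 0.000176). *ddit4*, the mammalian homologue of which restrains the growth kinase mTORC1, rose by 4.05 ± 0.47 but varied more than the others: it was at 2.74, 3.46 and 3.97 in treated embryos and -1.39, -0.74 and 0.13 in DMSO embryos, with the highest value of both groups on replicate 3. *socs3a*, an inhibitor of cytokine receptor signalling, rose by 2.96 ± 0.21, and *gadd45ba* by 2.19 ± 0.15. *pck1*, the cytosolic enzyme of the first committed step of gluconeogenesis, stood at 0.54, 0.96 and 0.94 with beclomethasone and at -2.55, -1.13 and -2.14 with DMSO. Its rise of 2.75 ± 0.37 (adjusted p = 0.00698) had an adjusted p of 0.0567 with slide as a block, where the difference was 2.95. *per1a*, the fish counterpart of a mammalian receptor target, was not called: it was at 2.56, 2.52 and 2.38 in treated embryos and 1.56, 1.52 and 2.44 in DMSO embryos, so DMSO replicate 3 lay among the treated values (0.65 ± 0.26, adjusted p = 0.162). Without DMSO replicate 3 the adjusted p of *per1a* was 0.00463, and with slide as a block the difference was 0.05.

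**Figure D1:**
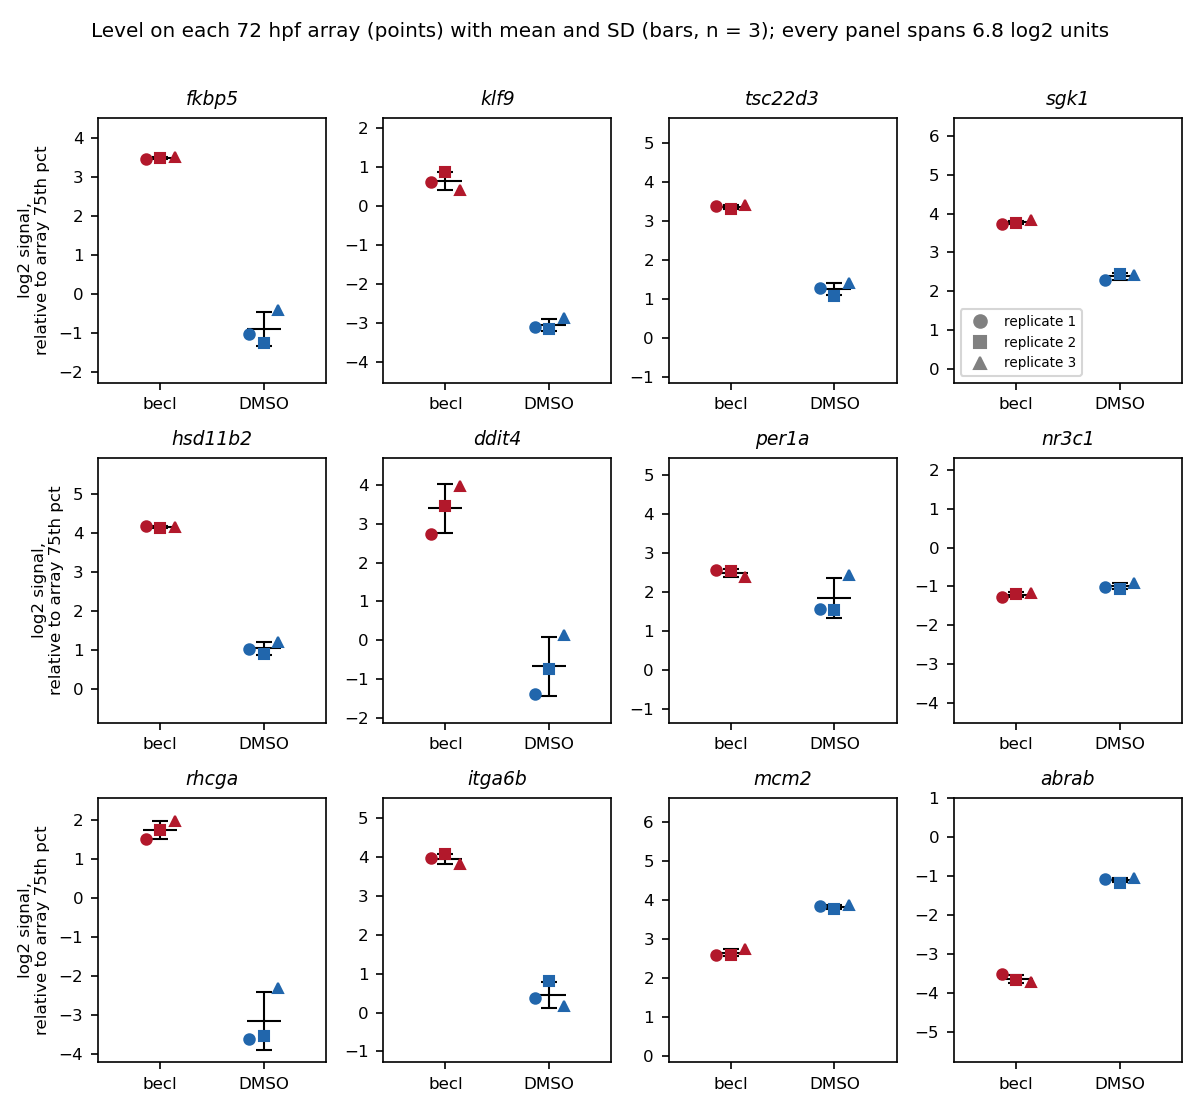
Level of 12 genes on each 72 hpf array, on the y axis as log2 signal relative to the array's 75th percentile, with beclomethasone (becl) left and DMSO right; marker shapes are replicate numbers and bars are means with SD (n = 3). The treated arrays of *fkbp5* sit at 3.47 to 3.51 and its DMSO arrays at -1.27 to -0.42, *mcm2* and *abrab* lie lower in treated embryos, and DMSO replicate 3 of *per1a* lies among the treated values.

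The receptor gene was not called, and hormone and steroid synthesis genes of the stress axis were among those that fell. *nr3c1*, which encodes the glucocorticoid receptor, was at -1.28, -1.19 and -1.16 in treated embryos and between -1.05 and -0.91 in DMSO embryos, without overlap, yet its difference of -0.22 ± 0.07 was not called (adjusted p = 0.10 in limma). Of 21 tested genes of receptor regulation and the stress axis, 3 rose (*fkbp5*, *hsd11b2* and the co-chaperone gene *ptges3a*) and 4 fell, with a median of -0.08. *pomca*, the precursor gene of the pituitary hormone ACTH, fell by 0.93 ± 0.14 and lay at -1.19, -1.31 and -1.37 in treated embryos against -0.09, -0.43 and -0.57 in DMSO embryos. *cyp17a1*, an enzyme of steroid synthesis, fell by 0.88 ± 0.15. The call of *pomca* was lost with slide as a block (adjusted p = 0.0861), and that of *cyp17a1* without beclomethasone replicate 2 or 3, without DMSO replicate 1 (adjusted p up to 0.0713) and with slide as a block (0.0939). The count of falls in the list was 6, beside 4 rises, with replicate number as a block, 1 without beclomethasone replicate 2, 2 without beclomethasone replicate 3 and 0 with slide as a block.

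Outside the receptor target list, the largest rise of a named gene was that of *rhcga*, a member of the Rh family of ammonia transporters. It stood at 1.51, 1.76 and 1.99 in treated embryos and at -3.63, -3.53 and -2.30 in DMSO embryos, a rise of 4.91 ± 0.37 (adjusted p = 0.00112), or 30.0-fold. The groups were separated by more than 3 log2 units even against the highest DMSO array, which was replicate 3. *cyp8b1.3* rose by 4.46 ± 0.12 and *cyp8b1.2* by 3.37 ± 0.13. Both belong to a cluster of genes named after the mammalian sterol 12-alpha-hydroxylase. Their sequences were not compared here, and cross-hybridisation between their probes cannot be told apart from shared change. *egln3*, which encodes an oxygen-dependent hydroxylase of hypoxia-inducible factors, was at 2.40, 2.57 and 2.52 with beclomethasone and -1.04, -0.97 and -1.88 with DMSO, a rise of 3.79 ± 0.25. The integrin subunit genes *itga6b* and *itgb4* rose by 3.49 ± 0.18 and 2.93 ± 0.14; their mammalian products pair as the laminin receptor of hemidesmosomes, which anchor basal skin cells. *itga6b* was at 3.97, 4.07 and 3.80 in treated embryos and 0.37, 0.82 and 0.17 in DMSO embryos, and *itgb4* at 3.04, 2.69 and 2.71 in treated embryos and -0.08, 0.04 and -0.31 in DMSO embryos, both with wide gaps.

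The remaining large rises were spread over enzymes, signalling genes and a yolk protein. *srd5a2a*, named for steroid 5-alpha-reductase, rose by 2.96 ± 0.08, and the kinase gene *stk35* by 2.78 ± 0.18. The uncharacterised gene *zgc:136870* rose by 3.54 ± 0.24. *igfbp1b*, a secreted binding protein of insulin-like growth factors, rose by 2.98 ± 0.38, with treated levels of 2.18, 1.60 and 2.11 and DMSO levels of -0.48, -1.84 and -0.74; its adjusted p with slide as a block was 0.0688. The vitellogenin gene *vtg7*, which encodes a yolk precursor, rose by 2.73 ± 0.46, but the call was lost without beclomethasone replicate 2 or 3 (adjusted p up to 0.0698) and with slide as a block (0.133). For 3 genes no DMSO array was well above background, so only a bound is given, the treated mean against the higher of each DMSO array's own signal and its lowest signal well above background. By that bound *cyp2k6*, a cytochrome P450 gene, was at least 8.02-fold higher, the glutathione transferase gene *gstk4* at least 4.18-fold higher and the cytokine gene *il26* at least 3.73-fold higher with beclomethasone.

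**Figure D2:**
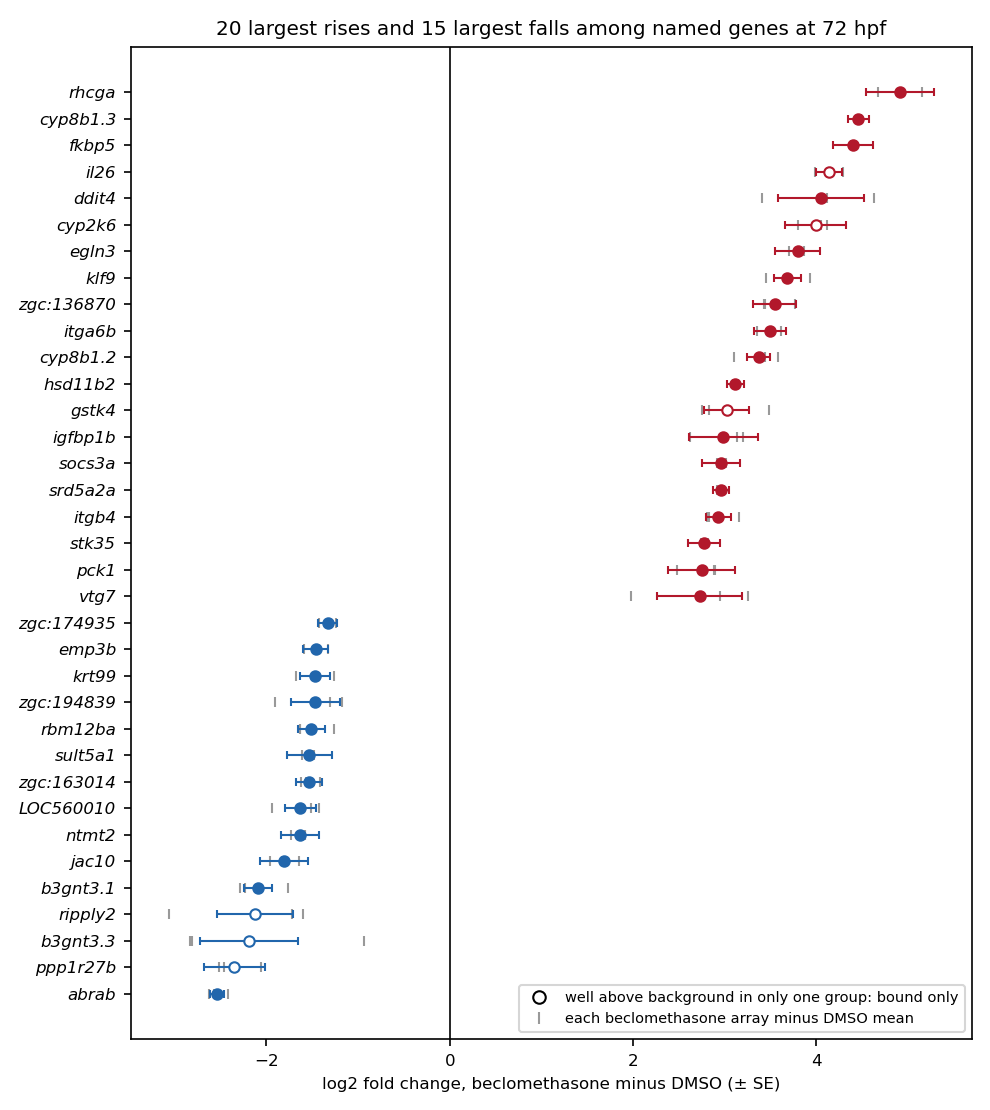
The log2 fold change, beclomethasone minus DMSO, of the 20 largest rises and 15 largest falls among called genes with a symbol (x axis; circles with SE bars, n = 3 each), with each treated array minus the DMSO mean as a grey tick. Rises reach 4.91 for *rhcga* and falls -2.54 for *abrab*; open circles are genes well above background in only 1 group, for which only a bound on the fold is given.

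The falls of named genes were smaller than the rises. *abrab*, which encodes an actin-binding protein of striated muscle, fell the furthest among measured genes: it was at -3.53, -3.68 and -3.73 in treated embryos and -1.09, -1.18 and -1.05 in DMSO embryos, a difference of -2.54 ± 0.08 (adjusted p = 0.000176), or 5.81-fold lower. Its groups were more than 2 log2 units apart with little spread in either. Of the glycosyltransferase genes *b3gnt3.1* and *b3gnt3.3*, which have close copies, *b3gnt3.1* fell by 2.09 ± 0.16 and *b3gnt3.3* was at least 1.54-fold lower. *jac10* fell by 1.81, the methyltransferase gene *ntmt2* by 1.63, *LOC560010* by 1.63, *zgc:163014* by 1.54, the sulfotransferase gene *sult5a1* by 1.53, the RNA-binding protein gene *rbm12ba* by 1.51, *zgc:194839* by 1.47, the keratin gene *krt99* by 1.47, *emp3b* by 1.46 and *zgc:174935* by 1.33, on the log2 scale. *ppp1r27b*, a phosphatase subunit gene, was at least 3.83-fold lower and *ripply2*, a repressor that sets somite borders, at least 2.02-fold lower, both with no treated array well above background. Leaving out 1 array ended the call of *b3gnt3.3* in 5 of 6 cases (adjusted p up to 0.152, all but without beclomethasone replicate 3), of *ripply2* without beclomethasone replicate 1 or DMSO replicate 1 or 2 (up to 0.0762), of *sult5a1* without beclomethasone replicate 2 or 3 (up to 0.0594) and of *zgc:194839* without beclomethasone replicate 2 or 3 or DMSO replicate 1 (up to 0.0597). With slide as a block the adjusted p was 0.0726 for *jac10*, 0.0896 for *ppp1r27b*, 0.22 for *b3gnt3.3*, 0.185 for *ripply2*, 0.105 for *sult5a1* and 0.125 for *zgc:194839*.

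Genes of the circadian clock rose in several of its limbs. The clock is a feedback loop in which Clock and Bmal activators drive the period, cryptochrome and Rev-erb genes, whose products repress them, and the PAR bZIP factors carry the rhythm to output genes. Of 34 tested clock genes 16 rose, 1 (*bmal1a*) fell and 17 were not called, with a median of 0.41. *nr1d2a*, a Rev-erb receptor gene, was at 2.29, 2.26 and 2.24 in treated embryos and 0.11, -0.35 and 0.33 in DMSO embryos, and *nr1d1* at 0.83, 0.87 and 0.88 in treated embryos and -0.54, -0.86 and -0.81 in DMSO embryos. Both stood clear of DMSO on every array, rising by 2.23 ± 0.17 and 1.60 ± 0.10. The repressor gene *bhlhe41* rose by 1.88 ± 0.14 and the bZIP gene *nfil3-6* by 1.86 ± 0.18, while *dbpb*, a PAR bZIP gene with no DMSO array well above background, was at least 2.54-fold higher. Grouped by function after the values had been seen, 6 of 8 PAR bZIP and Nfil3 genes, 5 of 7 cryptochrome and photolyase relatives, 2 of 6 Rev-erb and Ror genes and 1 of 4 period genes (*per2*) rose, and none of 4 Clock and Bmal genes did. The calls of *nr1d2a*, *nr1d1*, *bhlhe41* and *nfil3-6* stayed when any 1 array was left out, and rises in the whole list then numbered 13 to 18. The 6 PAR bZIP and Nfil3 rises include *dbpb*, which was tested only through its treated arrays, so its call is no separate support. In the fit of all 12 arrays 12 clock genes rose and 2 fell. With slide as a block the median of the list was 0.18.

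Several genes listed under gluconeogenesis and sugar storage rose, and few genes of the glycolytic chain were called. Of 23 tested genes of gluconeogenesis and sugar storage 10 rose and 1 fell, with a median of 0.35. *g6pc1a.2*, a catalytic subunit gene of glucose-6-phosphatase, which releases glucose, was at 2.97, 3.22 and 3.24 in treated embryos and 0.70, 1.14 and 1.49 in DMSO embryos, a rise of 2.04 ± 0.21. *pfkfb4b* and *pfkfb3*, bifunctional enzymes that set the level of a regulator of glycolysis, rose by 2.25 ± 0.16 and 1.60 ± 0.11. Neither was in the glycolysis list, where the largest log2 fold change was 0.76. The contrast between the lists therefore depends in part on where such genes were placed. *pdk4*, a kinase that shuts pyruvate dehydrogenase, rose by 1.54 ± 0.15. Of 29 tested glycolysis genes 2 rose (*hk2*, 0.76 ± 0.07, and *pgam1a*, 0.46 ± 0.11) and none fell, against a share of 7.5% over all features; the call of *pgam1a* was kept only without DMSO replicate 1 among the 6 arrays left out in turn (adjusted p up to 0.135). The single fall among the gluconeogenesis genes was not called without any treated array or with slide as a block.

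Nitrogen and amino acid genes moved in part. Of 40 tested genes of amino acid and nitrogen breakdown 9 rose, led by *rhcga*, and 2 fell, with a median of 0.06; no fall was called without any one treated array or DMSO replicate 2 or with slide as a block, and 4 with replicate number as a block. *agxtb*, an aminotransferase that detoxifies glyoxylate, was at 1.47, 1.58 and 1.68 in treated embryos and -0.30, -1.04 and -0.90 in DMSO embryos, a rise of 2.32 ± 0.20. *gldc*, the glycine decarboxylase of the glycine cleavage system, was at 2.95, 2.73 and 2.92 in treated embryos and 1.06, 0.99 and 0.83 in DMSO embryos, a rise of 1.91 ± 0.10. *glulb*, a glutamine synthetase gene and known receptor target in mammals, rose by 1.15 ± 0.09. In all 3 genes every treated array exceeded every DMSO array. *tdo2b*, a tryptophan dioxygenase gene, rose by 1.30 ± 0.32 at an adjusted p of 0.049, and stayed called only without DMSO replicate 2 or 3 (up to 0.155 otherwise).

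Most enzymes of sterol synthesis rose, while the tested genes of fatty acid oxidation and synthesis and the tested apolipoprotein genes were not called. Of 60 tested genes of fatty acids, sterols and lipoproteins 18 rose and 1 fell, with a median of 0.22. In a split made after the values had been seen, 12 of 17 enzymes of sterol synthesis rose (median 1.06). No gene was called among 8 of fatty acid oxidation, 6 of fatty acid synthesis and 7 apolipoproteins. The synthesis genes *fasn*, *acaca* and *acacb* and the oxidation genes *cpt1ab* and *cpt1b* were not tested. Of the apolipoprotein genes, *apoa1b*, *apoba*, *apoc1* and *apoc2* were not tested. Nothing is said here about these untested genes. *insig1*, the sterol-responsive anchor that holds back the activators of sterol synthesis, was at 0.87, 1.06 and 1.12 in treated embryos and -1.13, -1.15 and -1.02 in DMSO embryos, a rise of 2.11 ± 0.09. The demethylating enzyme genes *msmo1* and *cyp51* rose by 2.10 ± 0.32 and 1.96 ± 0.16, *sqlea*, squalene epoxidase, by 1.62 ± 0.30, and *lpin1a*, a phosphatidate phosphatase, by 1.70 ± 0.15. *msmo1* was at 1.25, 1.89 and 2.14 in treated embryos and -0.61, -0.63 and 0.21 in DMSO embryos, and DMSO replicate 3 was the DMSO array nearest to the treated ones. The count of rises in the whole list was 9 without beclomethasone replicate 2, 11 without beclomethasone replicate 3, 10 without DMSO replicate 1 and 7 with slide as a block. The call of *sqlea* was lost in those 3 cases (adjusted p up to 0.0774), that of *msmo1* without beclomethasone replicate 2 (0.054), and both with slide as a block (0.13 and 0.0864).

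Among 54 tested genes for foreign compounds and steroids, 16 rose and 3 fell, with a median of 0.18. Besides *cyp2k6*, the sulfotransferase genes *sult2st1* and *sult2st3* rose by 1.49 ± 0.07 and 2.22 ± 0.35, the vitamin D hydroxylase gene *cyp24a1* by 2.45 ± 0.44 and *cyp1c1*, a target of the aryl hydrocarbon receptor, by 1.29 ± 0.12. *cyp1c1* was at 0.96, 0.69 and 0.74 in treated embryos and -0.33, -0.48 and -0.66 in DMSO embryos. *cyp24a1* was at 2.47, 1.92 and 2.38 in treated embryos and 0.45, -1.21 and 0.16 in DMSO embryos, where replicate 2 was the lowest of both groups. Leaving out any treated array gave 9 rises in the list, slide as a block gave 8, and replicate number as a block gave 7 falls. The calls of *cyp24a1* (adjusted p up to 0.0746 without any one treated array, 0.163 with slide as a block) and *sult2st3* (up to 0.0579, without beclomethasone replicate 1 or 2) were among those lost.

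Growth signalling showed rises in both binding proteins and translation brakes. Of 24 tested genes of the insulin-like growth factor axis 7 rose and 1 fell, with a median of 0.29. *irs2a*, an adaptor of the insulin receptor, was at -1.95, -2.03 and -1.95 in treated embryos and -4.09, -4.42 and -3.92 in DMSO embryos, a rise of 2.17 ± 0.13. *igfbp1a* rose by 1.31 ± 0.11 and the ligand gene *igf2b* by 0.77 ± 0.06, and *igfbp6b* fell by 1.16 ± 0.24. By function, 4 of 8 binding protein genes rose and 1 fell, and 2 of 4 ligand genes rose. With slide as a block 4 genes of the axis rose, and the call of *igfbp6b* was lost there (adjusted p = 0.212) and without beclomethasone replicate 2 or 3 or DMSO replicate 1 or 2 (up to 0.107).

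In the list of protein turnover and muscle atrophy, 7 of 35 tested genes rose and 3 fell, beside 7.5% and 6.41% of all features, with a median of 0.12. Its named rises were *ddit4* and the translation repressor genes *eif4ebp3l* and *eif4ebp3*, which bind the cap-binding factor eIF4E and rose by 1.65 ± 0.07 and 1.63 ± 0.08. *eif4ebp3l* was at 4.80, 4.69 and 4.85 in treated embryos and 3.16, 3.10 and 3.14 in DMSO embryos, without overlap. The ubiquitin ligase genes of muscle atrophy rose less, *fbxo32* by 0.95 ± 0.23 on the log2 scale (adjusted p = 0.0461) and *trim63b* 2-fold. *fbxo32* stayed called only without beclomethasone replicate 1 (up to 0.117 otherwise) and *trim63b* lost its call without beclomethasone replicate 1 or 3 (up to 0.056); with slide as a block their adjusted p-values were 0.253 and 0.0586. The counts of falls changed with the arrays used: 1 without any treated array or DMSO replicate 2, 5 without DMSO replicate 3, 6 with replicate number as a block and 0 with slide as a block. Rises numbered 4 without beclomethasone replicate 3 and with slide as a block.

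Oxygen sensing genes rose beside *egln3*. Of 21 tested members 11 rose and none fell, with a median of 0.49, beside 7.5% of all features called higher. *hif1al*, named after the alpha subunit of a hypoxia-inducible factor, rose by 1.71 ± 0.08. It was at 6.31, 6.13 and 6.30 in treated embryos and 4.50, 4.54 and 4.57 in DMSO embryos. *ndrg1b*, a stress-responsive gene, rose by 1.45 ± 0.07, and *hmox1a*, the haem-degrading oxygenase, by 1.44 ± 0.18. In *hmox1a* the treated values of -0.63, -1.33 and -0.81 were more spread than the DMSO values of -2.33, -2.33 and -2.44. With slide as a block 6 members rose, and *hmox1a* had an adjusted p of 0.0545.

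DNA replication genes fell together, and all 46 tested members had a negative difference. Of 46 tested members 42 fell, beside 6.41% of all features, none rose and 4 were not called, with a median of -0.68. *mcm2* and *mcm5*, subunits of the helicase that unwinds DNA, fell by 1.18 ± 0.08 and 1.15 ± 0.06; *mcm2* was at 2.58, 2.59 and 2.75 in treated embryos and 3.84, 3.76 and 3.87 in DMSO embryos. *mcm10*, a replication initiation factor, fell by 1.21 ± 0.08, *gins2*, a helicase partner, by 1.16 ± 0.08, and *orc1*, a subunit of the origin recognition complex, by 1.13 ± 0.06. *orc1* was at -1.73, -1.67 and -1.63 in treated embryos and -0.50, -0.57 and -0.58 in DMSO embryos, and none of these genes overlapped between groups. With slide as a block 27 members fell, with replicate number as a block 45, and with any 1 array left out 30 to 36.

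In a grouping made after the values had been seen, every group of the DNA replication list held falls. All 6 helicase subunits fell, with log2 fold changes of -1.18 to -0.50, as did all 6 subunits of the origin recognition complex, -1.13 to -0.52, and 3 of 3 tested genes of helicase loading and its control. Of 8 tested polymerase and primase genes 7 fell, and so did all 6 genes of the sliding clamp and its loader, -0.66 to -0.54, all 3 genes of the single-strand binding protein RPA, and 4 of 5 genes of nucleotide supply. Of the remaining groups, 3 of 4 tested GINS and *cdc45* genes fell. So did 2 of 2 of ligation and RNA primer removal and 2 of 3 of chromatin assembly and histone supply. The members not called were *cdc45* (-0.57), *pold3* (-0.33), *rrm1* (-0.32) and *dnmt1* (-0.80), each with a negative difference. Not tested were *cdt1*, *gins1*, *pola1*, *rrm2b*, *fen1*, *slbp* and *chaf1b*.

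**Figure D3:**
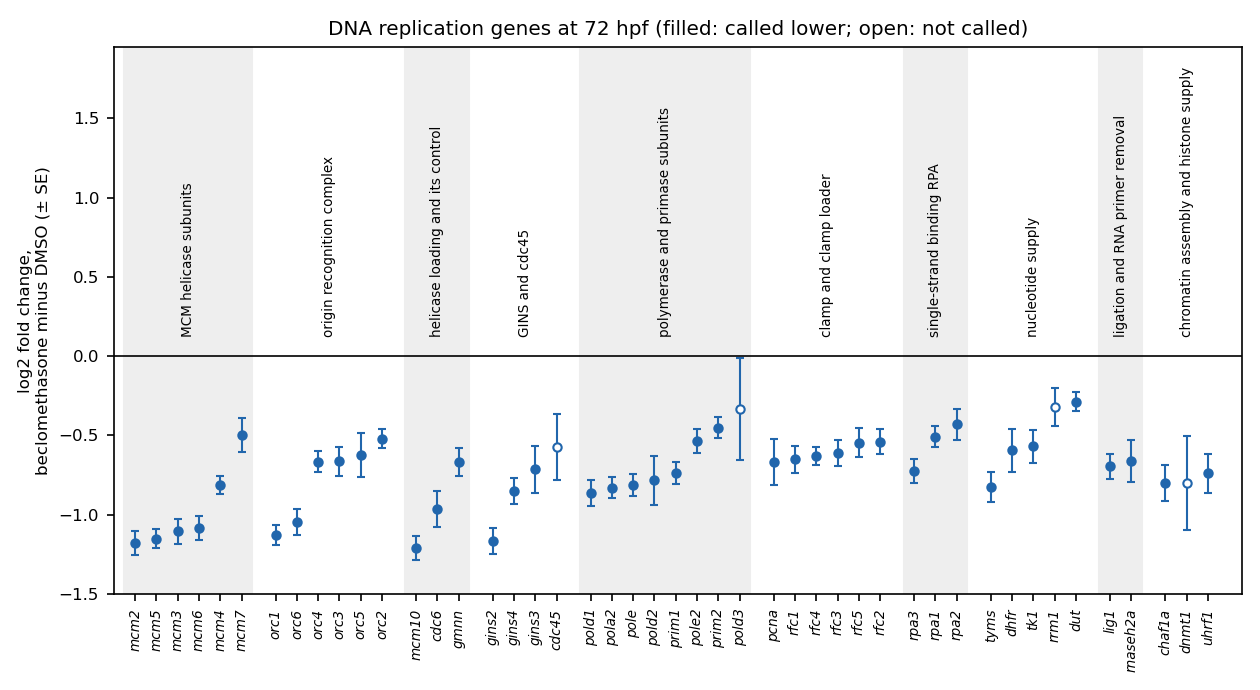
The log2 fold change with SE (y axis, n = 3 arrays each) of the 46 tested DNA replication genes, ordered by complex along the x axis. All 46 lie below 0; the 42 filled genes were called lower and the 4 open ones were not called.

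Part of the cell cycle genes fell. Of 48 tested genes of the cell cycle and mitosis 16 fell and 1 rose, with a median of -0.20. *ccne1*, the cyclin of S-phase entry, was at -2.89, -2.86 and -2.94 in treated embryos and -1.65, -1.91 and -1.88 in DMSO embryos, a fall of 1.08 ± 0.09, and its kinase partner gene *cdk2* fell by 0.89 ± 0.07. *ccnd2b* fell by 0.88 ± 0.07, and the retinoblastoma gene *rb1* by 1.17 ± 0.25. With 1 array left out, the call of *rb1* stayed only without beclomethasone replicate 1 or DMSO replicate 2 (adjusted p up to 0.118 otherwise). With the median over probes *rb1* was not called (adjusted p = 0.072 in limma). Grouped after the values had been seen, 10 of 15 genes of G1 and S phase control fell (median -0.55), and 4 of 24 genes of the mitotic spindle and its kinases fell (median -0.17); the difference between these groups was not tested. The gene that rose was *ccng2*, an atypical cyclin linked to cell cycle arrest in mammals, at 3.24, 3.23 and 3.22 in treated embryos and 2.16, 2.10 and 2.19 in DMSO embryos. Falls in the list numbered 10 without beclomethasone replicate 2 or 3 or DMSO replicate 3, and 7 with slide as a block.

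Nearly as many inhibitors of proliferation rose as were not called or fell. In a list of cycle inhibitors and targets of p53, 14 of 30 tested genes rose and 3 fell, with a median of 0.29. Besides *gadd45ba*, which was at 1.35, 1.15 and 1.17 in treated embryos and -0.81, -1.29 and -0.81 in DMSO embryos, the antiproliferative genes *tob1a* and *tob1b* rose by 1.27 ± 0.11 and 1.25 ± 0.06. *tp53inp1* rose by 1.28 ± 0.07 and *bbc3*, a mediator of cell death, by 0.95 ± 0.08. Rises numbered 9 without beclomethasone replicate 2 or 3 and with slide as a block, and falls 0 without beclomethasone replicate 1 or 3 or DMSO replicate 2 and with slide as a block, 1 without beclomethasone replicate 2 or DMSO replicate 1 and 5 with replicate number as a block.

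Genes of chromatin and of ribosome production fell by smaller amounts. Of 32 tested chromatin and DNA methylation genes 9 fell and 1 rose, with a median of -0.17. *hells*, a remodeller needed for DNA methylation, fell by 1.03 ± 0.08, and *uhrf1*, which brings the maintenance methyltransferase to new DNA, by 0.74 ± 0.12. The fall of *uhrf1* is also counted among the DNA replication genes above. The new-methylation enzyme genes *dnmt3bb.3* and *dnmt3bb.2* fell by 0.72 ± 0.08 and 0.70 ± 0.09. The gene that rose was *cbx7a*, a Polycomb chromodomain gene, at 0.33, 0.33 and 0.30 in treated embryos and -1.54, -1.24 and -1.10 in DMSO embryos. Of 61 tested genes of RNA processing and ribosome biogenesis 17 fell and 1 rose, with a median of -0.22; *rrs1*, an assembly factor of the large ribosomal subunit, fell by 0.65 ± 0.06 and *nop58*, a core protein of box C/D particles, by 0.54 ± 0.09. That count was 26 with replicate number as a block, 1 with slide as a block, and 4, 2 and 3 without beclomethasone replicates 1, 2 and 3 and 9 without DMSO replicate 1 or 2. The call of *dnmt3bb.3* rests on 1 probe: its other probe differed by -0.11, and with the median over probes its adjusted p was 0.30. That of *dnmt3bb.2* was lost with slide as a block (adjusted p = 0.0561). *nop58* lost its call without any one treated array (adjusted p up to 0.0746) and *uhrf1* without beclomethasone replicate 1 or 2 (up to 0.0649). Chromatin falls numbered 5 without beclomethasone replicate 2 and 4 with slide as a block. Of 80 ribosomal protein genes 1 fell, *rpl7l1* (-0.34 ± 0.06), which lost its call without any one treated array or DMSO replicate 2 (adjusted p up to 0.0827). Of 50 proteasome genes 2 fell, a count that was 0 without beclomethasone replicate 2 and with slide as a block, 1 without beclomethasone replicate 1 or 3 or DMSO replicate 2, 4 without DMSO replicate 3 and with replicate number as a block, and 5 with quantile normalisation; 47 of the 50 had a negative difference.

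Chaperone and stress genes rose in part. Of 43 tested genes of the heat shock and unfolded protein responses 11 rose and 1 fell, with a median of 0.16. *chac1*, which breaks down glutathione and follows the amino acid stress response, was at 3.90, 4.06 and 3.87 in treated embryos and 2.10, 2.29 and 2.06 in DMSO embryos, a rise of 1.79 ± 0.09. The chaperone genes *hsp70.3* and *hsp70l*, which are similar enough that their probes may share signal, rose by 1.44 ± 0.16 and 1.21 ± 0.13, and *hsp90aa1.1* rose by 1.13 ± 0.13. In *hsp70.3* the treated arrays were at 3.06, 3.40 and 3.59 and the DMSO arrays at 2.06, 1.92 and 1.76. Rises numbered 7 without any one treated array and with slide as a block, where *hsp90aa1.1* had an adjusted p of 0.0537.

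Inflammatory signalling moved both ways. Of 39 tested genes 6 rose (15.4%) and 7 fell (17.9%), beside 7.5% and 6.41% of all features, with a median of -0.02. The rises within this list were led by inhibitors. *nfkbiab* and *nfkbiaa*, which hold the transcription factor NF-κB in the cytoplasm, rose by 1.64 ± 0.08 and 1.12 ± 0.09. *socs1a* and *socs3a*, brakes on cytokine receptors, rose by 1.34 ± 0.09 and 2.96 ± 0.21. The cytokine gene *il26*, given above as a bound, also rose but was not a member of the list. *nfkbiab* was at 4.80 on each treated array and at 3.21, 3.02 and 3.26 on the DMSO arrays. Among the falls, *irf1b*, an interferon regulatory factor, fell by 1.11 ± 0.26, a call held only without DMSO replicate 3 (adjusted p up to 0.15 otherwise); its other probe differed by 0.27. Falls numbered 3, 2 and 2 without beclomethasone replicates 1, 2 and 3, 4 without DMSO replicate 1 or 2, and 1 with slide as a block.

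Of 31 tested immediate early genes, which respond first to signals, 10 rose and 3 fell, with a median of 0.21. *klf2a* rose by 1.83 ± 0.14, *dusp1*, a phosphatase that turns off stress kinases, by 1.71 ± 0.08, the orphan receptor gene *nr4a1* by 1.64 ± 0.11, *fosab* by 1.47 ± 0.12 and *ccn1*, a matricellular protein gene, 2-fold. *dusp1* was at 3.11, 3.15 and 3.16 in treated embryos and 1.49, 1.31 and 1.50 in DMSO embryos, and *klf2a* at 3.51, 3.64 and 3.68 in treated embryos and 1.87, 1.48 and 1.99 in DMSO embryos. These rises stayed called when any 1 array was left out and with slide as a block, whereas 1 gene of the list fell without beclomethasone replicate 2 or 3 and with slide as a block.

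Skin genes rose beyond the integrins. Of 45 tested genes of keratins, epidermis and hatching gland 14 rose and 4 fell, with a median of 0.22. *anxa2a*, a membrane-binding annexin, was at 5.24, 5.16 and 5.18 in treated embryos and 3.62, 3.82 and 3.55 in DMSO embryos, a rise of 1.53 ± 0.09, and *grhl2b*, an epithelial transcription factor, rose by 1.34 ± 0.11. Grouped after the values had been seen, 2 of 14 keratin genes rose and 1 (*krt99*) fell, and of 3 hemidesmosome genes the integrin pair rose and *col17a1a* fell (-0.41). Rises numbered 8 without beclomethasone replicate 2, 9 without beclomethasone replicate 3 and 6 with slide as a block; falls numbered 2 without DMSO replicate 1 or 2, and 1 under the slide block and without beclomethasone replicate 2 or 3.

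Ionocytes are the salt-transporting cells of the skin. Among 35 tested genes of a list of ionocytes and skin transport, 7 rose and 2 fell, with a median of 0.14. Apart from *rhcga*, the chloride channel gene *cftr* rose by 1.49 ± 0.13, the ammonia transporter gene *rhcgl1* by 1.86 ± 0.32, the sodium pump subunit gene *atp1b1a* by 0.73 ± 0.09 and the water channel gene *aqp3a* by 0.66 ± 0.07. *cftr* was at -2.77, -2.68 and -2.56 in treated embryos and -4.33, -4.24 and -3.90 in DMSO embryos. The summed linear level of the 35 genes, in units of each array's 75th percentile, was 183 to 191 in treated embryos. In DMSO embryos it was 159 to 170, without overlap. Among all single features 17.0% likewise lay without overlap on the higher side. Bright probes weigh most in such a sum, among them *atp1b1a*, at a mean log2 level of 5.09 in treated and 4.36 in DMSO embryos, and *aqp3a*, at 3.89 and 3.24. Rises numbered 4 without any one treated array and 3 with slide as a block; *rhcgl1* lost its call without any one treated array or DMSO replicate 1 (adjusted p up to 0.0694), and with slide as a block *rhcgl1* and *atp1b1a* had adjusted p-values of 0.12 and 0.0584.

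In most other tissue lists the share of calls did not exceed that over all features, 7.5% higher and 6.41% lower. The exceptions were intestinal genes in both directions, red cell genes and genes of neutrophils and macrophages for falls, and blood vessel genes for rises. Each of these rests on 3 or 4 calls, and whether their shares differ from those over all features was not tested. Rises were 10.3% of blood vessel genes, and falls 13.0% of genes of neutrophils and macrophages. Intestinal rises numbered 2 and falls 1 without beclomethasone replicate 2 or 3. In the fit of all 12 arrays 1 intestinal gene rose and none fell. Calls reached 1 higher and 3 lower of 48 skeletal muscle genes, with *abrab* the largest, 1 and 0 of 21 heart genes (*gata4*, a rise of 0.80 ± 0.08), 2 and 0 of 32 liver genes, 1 and 3 of 47 photoreceptor genes, 4 and 0 of 58 genes of neurons and glia, and 0 and 2 of 37 genes of collagens and skeleton. No gene was called at the adjusted threshold among 43 lens genes or 69 genes of oxidative phosphorylation. Of 29 blood vessel genes 3 rose and 1 fell, with the receptor gene *kdr* higher by 0.90 ± 0.07, and the summed level of the list was 21.7 to 22.7 in treated embryos and 20.9 to 21.6 in DMSO embryos. Of 25 intestinal genes 4 rose, led by the amino acid transporter gene *slc6a19a.1* (1.57 ± 0.11), and 4 fell. Of 23 genes of neutrophils and macrophages 3 fell and 1 rose; *mpeg1.1*, a macrophage gene, was at -3.48, -3.52 and -3.52 in treated embryos and -2.49, -2.53 and -2.65 in DMSO embryos, a fall of 0.95 ± 0.07. Of 27 red cell genes 4 fell, with the regulator gene *gata1a* lower by 1.21 ± 0.20, and 2 rose. The call of *gata1a* was lost without any one treated array (adjusted p up to 0.0648) and with slide as a block (0.123), and none of the 4 red cell falls passed without any one treated array or with slide as a block. Without any one treated array no skeletal muscle gene rose, 1 fell, no photoreceptor gene rose and 1 fell, and no collagen or skeleton gene fell; neuron and glia rises numbered 0 without beclomethasone replicate 2 or 3, and intestinal falls 0 without beclomethasone replicate 1. Of 34 pancreas genes 2 rose; none did without any one treated array, without DMSO replicate 1 or 2 or with slide as a block, and 8 did with replicate number as a block. With that block 3 photoreceptor genes rose and 7 fell. The summed levels of the tissue lists overlapped between the groups, except those of blood vessels and of ionocytes and skin transport. A lack of overlap on the higher side was also seen in 17.0% of all single features. The part of any change in tissue share in the results above was not tested.

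**Figure D4:**
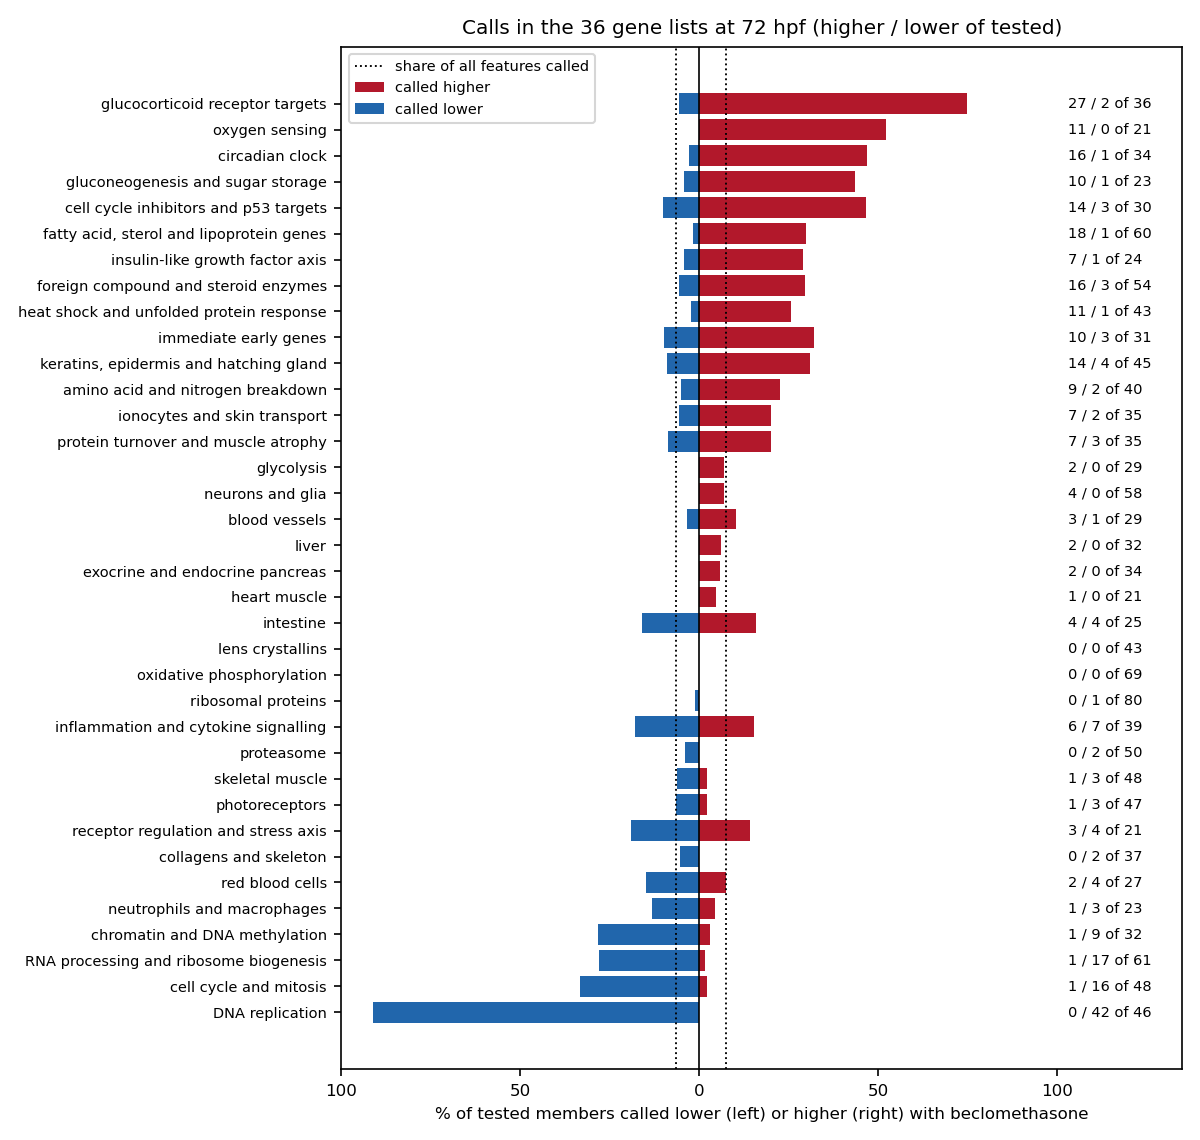
For each of 36 gene lists (rows), the percentage of tested members called lower (blue, left) or higher (red, right) with beclomethasone, with counts of higher and lower calls and of tested genes at the right; dotted lines mark 7.5% higher and 6.41% lower over all features. Receptor targets (27 of 36 higher) stand at the top and DNA replication (42 of 46 lower) at the bottom.

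The stages were compared in 1 fit of all 12 arrays, over the 24842 tested features with a value on each. The value tested was the difference between the treatment effect at 72 hpf and that at 24 hpf. These features, and the probe of each gene, were chosen on the 72 hpf arrays alone. A feature above background only at 24 hpf was left out, while one at background at 24 hpf could enter. All counts and shares at 24 hpf and of the stage difference hold for that set only. At 24 hpf the 3 DMSO arrays and beclomethasone replicate 1 shared a slide. Beclomethasone replicates 2 and 3 of that stage lay on the slide of 72 hpf DMSO replicates 1 and 2. Treatment and slide were therefore partly confounded at both stages. No slide block was run for the 24 hpf effects or the stage difference, so the part of slide in them was not tested. That difference was called for 1621 features (6.53%), 658 (2.65%) more positive and 963 (3.88%) more negative at 72 hpf. The balance turned under other settings, to 1033 more positive and 885 more negative with median centring, 4140 and 1651 with normexp, and 892 and 810 without 72 hpf DMSO replicate 3. DMSO replicate 3 at 24 hpf stood apart, with 16764 spots well above background beside 31210 to 34296 on the other 24 hpf arrays, and without it 3131 features were called, 1587 more positive and 1544 more negative. At 24 hpf 9.32% of features were called higher and 10.3% lower with beclomethasone. The median log2 fold change over all features was -0.12 at 24 hpf, beside 0.00 at 72 hpf. The 24 hpf effects and the stage differences were not corrected for it. For the overlap, the 72 hpf calls are those of the 6 arrays of that stage and the 24 hpf calls those of the 12-array fit. Features called higher at both stages numbered 595, which is 31.8% of the 72 hpf rises and 25.7% of the 24 hpf rises, and those called lower at both numbered 471, or 29.5% and 18.5%. The counts called in opposite directions were 62 among the 72 hpf rises and 86 among the 72 hpf falls.

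The receptor targets *fkbp5*, *klf9*, *sgk1* and *hsd11b2* were raised at both stages. *sgk1* rose by 1.39 at 72 hpf and by 0.57 at 24 hpf, a called difference of 0.81. At 24 hpf *fkbp5* was well above background on 1 of 3 DMSO arrays and *klf9* on none, while both were on all 3 treated arrays. Their fitted 24 hpf effects, 5.85 ± 1.17 for *fkbp5* and 4.60 ± 0.83 for *klf9* (SE), therefore rest on signals at background, and their size is not set against the 72 hpf effects of 4.40 and 3.68. *hsd11b2* rose by 3.12 at 72 hpf and by 3.99 at 24 hpf, a called difference of -0.87 (adjusted p = 0.0144), and *nr1d2a* by 2.23 at 72 hpf and 3.52 at 24 hpf (difference -1.29). Other genes had their effect at 72 hpf: *rhcga* rose by 4.91 at 72 hpf beside -0.06 at 24 hpf, *itga6b* by 3.49 beside 0.42, *itgb4* by 2.93 beside 0.01 and *gldc* by 1.91 beside 0.18, each with a called difference. *tnni2b.2*, a fast troponin gene, differed by 0.03 ± 0.06 at 72 hpf and was not called there, while at 24 hpf it was 3.68 higher with beclomethasone, the difference with the smallest adjusted p among the named genes (1.75e-05). *casq2* (0.09 at 72 hpf beside 2.07 at 24 hpf) and *pde6ha*, a cone phosphodiesterase gene (-0.69 beside 2.66), were likewise called at 24 hpf and not at 72 hpf.

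At the level of lists, 23 of 46 DNA replication genes had a called difference and all 23 were more negative at 72 hpf, with 24 more negative when DMSO replicate 3 at 24 hpf was left out. At 24 hpf 20 of the 46 fell. Of 36 receptor targets 21 rose and 2 fell at 24 hpf, with a median of 0.51 there beside 1.23 at 72 hpf. Their stage difference was called more positive at 72 hpf for 8 and more negative for 1. Without DMSO replicate 3 at 24 hpf these counts were 13 and 3. Over all features 9.32% were called higher and 10.3% lower at 24 hpf. The stage difference was called more positive for 2.65% and more negative for 3.88%. Without DMSO replicate 3 at 24 hpf it was called for 1587 and 1544 of 24842 features. Of 43 heat shock and unfolded protein genes 21 fell and 4 rose at 24 hpf, and 19 had a difference called more positive at 72 hpf, 25 without that array. Skeletal muscle genes numbered 21 higher and 3 lower at 24 hpf, with 11 differences called more negative at 72 hpf (14 without that array), and red cell genes 17 higher and none lower at 24 hpf, with 9 called more negative at 72 hpf (10 without it).

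**Figure D5:**
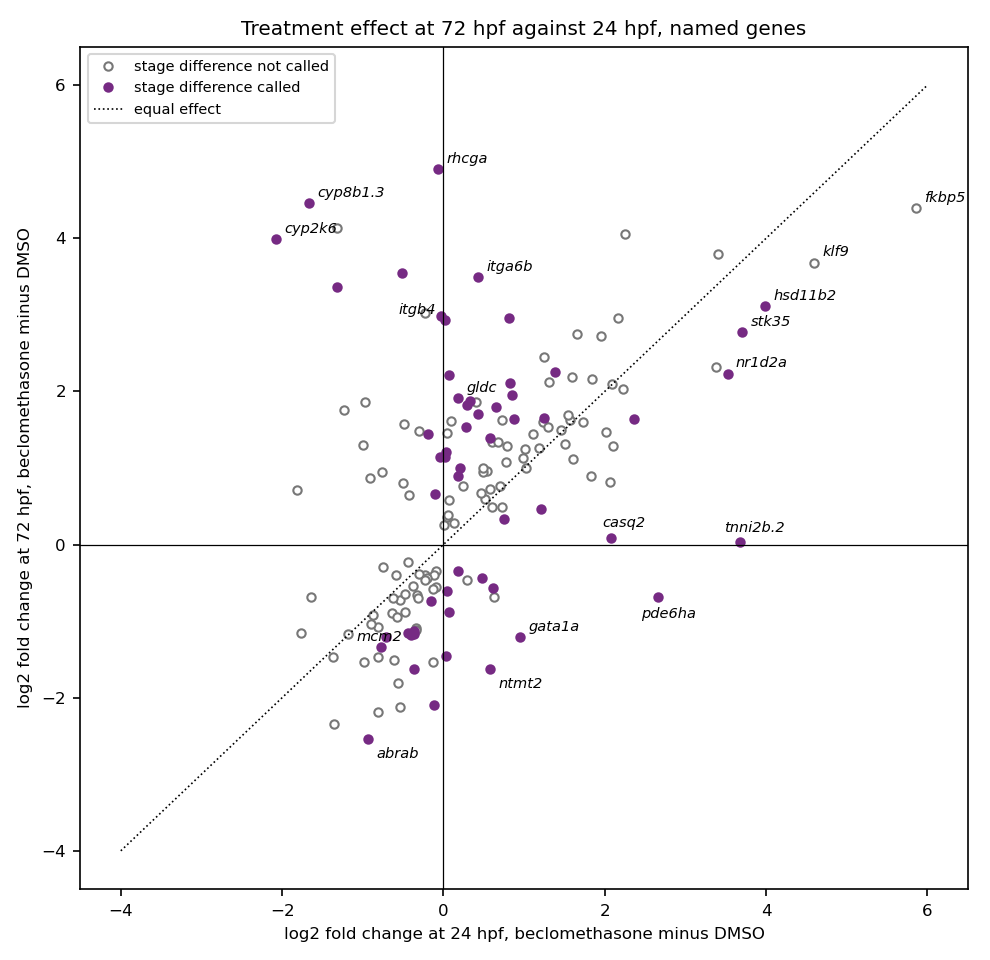
The treatment effect (log2 fold change, beclomethasone minus DMSO) at 72 hpf (y axis) against that at 24 hpf (x axis) for the named genes with a value on all 12 arrays; filled points have a called difference between stages and the dotted line marks equal effects. *fkbp5*, *klf9* and *hsd11b2* lie high at both stages, *rhcga* and *itga6b* lie high on the 72 hpf axis and near 0 on the other, and *tnni2b.2* sits at 0.03 at 72 hpf beside 3.68 at 24 hpf; *cyp8b1.3* had no 24 hpf array, and *klf9* no 24 hpf DMSO array, well above background.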

How the data were processed

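Scanner output was deposited for single-colour (Cy3) Agilent arrays of design 026437; probe intensity was extracted with Feature Extraction 10.7.1.1, per the file headers, and the deposited processed signal is already background-subtracted. The authors' deposited value table holds log2 values, for which the submitters' processing notes name Agilent Feature Extraction and limma; its columns have medians of 7.37 to 7.38 and their normalisation is not given in the sources used here. From the processed signals, log2 values were taken relative to the 75th percentile of each array. Control spots and outlier flags were left out, spots of a probe were averaged, and a probe was tested if well above background on every array of at least 1 group. Of 43603 probes, 26981 carried a RefSeq accession and 25069 could be named through the RefSeq gene table (12858 genes); 18534 stayed unnamed, and the brightest probe stood for each of 6871 genes with several. Groups were compared with limma 3.58.1 in R 4.3.3 (lmFit and eBayes, the 6 arrays of 72 hpf, no covariate), with Benjamini-Hochberg adjustment over all 24907 features and a threshold of 0.05.

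Same-numbered arrays deviated together (r of 0.527, 0.495 and 0.487), so same-numbered samples share variation. Other pairs had r of -0.385 to -0.124, but deviations from group means sum to 0, so these are no separate evidence. The main fit left this pairing out, and the fit with replicate number as a block includes it. Alternatives covered normalisation, background (normexp, on the median signal because the files hold no mean signal), the filter, probe choice, all 12 arrays, replicate and slide blocks, left-out arrays and the deposited table; list counts for each left-out array and the stage comparison without 1 array were added after seeing the data. Genes were named by rule: the 20 largest rises and 15 largest falls among called genes whose groups do not overlap, up to 5 called genes of each list by size, the 6 largest stage differences of each sign, and 9 receptor genes and targets whether called or not. Other genes, which complete a short count or a group, were named after their values were seen, as were the functional subgroups. The comparison and the gene lists were chosen with earlier results of these data known. On simulated data with 24907 features, 67, 67 and 66 features were changed by 0.5, 1 and 2 on the log2 scale. Of these 31.3%, 70.1% and 90.9% were called, with 8 false calls. The simulated noise was independent between arrays, with no effect of replicate number or slide. Far fewer features were changed than were called in the data. The share of false calls among the real calls was therefore not tested.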

Additional observations from a re-analysis of the deposited data

Results flagged for a closer look

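The treatment effect differed between the stages, by limma's test of the difference itself over all 12 arrays, for 56 of the named genes; each value is the log2 effect of beclomethasone at 72 hpf minus that at 24 hpf. That test held no slide block, and slide was partly confounded with treatment at both stages. The difference was more positive at 72 hpf for 29 genes. The first 10 by fitted value, which for genes at background carries no order, were 6.12 for *cyp8b1.3*, 6.07 for *cyp2k6*, 4.97 for *rhcga*, 4.68 for *cyp8b1.2*, 4.06 for *zgc:136870*, 3.07 for *itga6b*, 3.02 for *igfbp1b*, 2.91 for *itgb4*, 2.15 for *sult2st3* and 2.14 for *srd5a2a*. Next in size were 1.73 for *gldc*, 1.63 for *hsp70.3*, 1.54 for *klf2a*, 1.54 for *bhlhe41*, 1.29 for *insig1*, 1.27 for *dusp1*, 1.25 for *anxa2a*, 1.19 for *glulb*, 1.19 for *hsp70l* and 1.15 for *chac1*. The smallest were 1.13 for *ptges3a*, 1.11 for *cyp51*, 0.86 for *pfkfb4b*, 0.81 for *sgk1*, 0.79 for *ccn1*, 0.76 for *nfkbiab*, 0.75 for *aqp3a*, 0.72 for *kdr* and 0.40 for *eif4ebp3l*.

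The difference was more negative at 72 hpf for 27 genes. The furthest from 0 were -3.65 for *tnni2b.2*, -3.35 for *pde6ha*, -2.21 for *ntmt2*, -2.16 for *gata1a*, -1.98 for *casq2*, -1.98 for *b3gnt3.1*, -1.60 for *abrab*, -1.49 for *emp3b*, -1.29 for *nr1d2a* and -1.26 for *LOC560010*. Then came -1.18 for *hbae4*, -0.96 for *cyp17a1*, -0.93 for *stk35*, -0.91 for *myf5*, -0.87 for *hsd11b2*, -0.80 for *gins2*, -0.77 for *orc1*, -0.77 for *mcm2*, -0.75 for *pgam1a* and -0.72 for *nr4a1*. Those nearest to 0 were -0.71 for *mcm5*, -0.65 for *havcr1*, -0.58 for *uhrf1*, -0.56 for *zgc:174935*, -0.53 for *lmo2*, -0.50 for *mcm10* and -0.42 for *atp2a1l*. Without the third 24 hpf DMSO array, which stood apart in background, 55 of the 56 differences were still called and none turned sign; *zgc:174935* was not called (adjusted p = 0.0538). The probes of *cyp2k6*, *cyp8b1.2* and *cyp8b1.3* were well above background on no 24 hpf array, and that of *zgc:136870* on no 24 hpf DMSO array, so their values depend on signals at background. Without that array the differences were 4.87 for *cyp8b1.3*, 5.06 for *cyp2k6*, 4.82 for *rhcga*, 3.42 for *cyp8b1.2* and 3.37 for *zgc:136870*.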

How the results depend on the processing

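Of 157 named calls, 50 lost their call when some single array was left out; 97 stayed called with slide as a block. Replicate number as a block gave 5035 features, 2498 higher and 2537 lower, and ended 4 named calls: *guca1b* (adjusted p = 0.0651), *hbae4* (0.0673), *lmo2* (0.0524) and *slc6a19b* (0.0625). Slide as a block gave 1169 features, 790 higher and 379 lower, so 67.6% of calls were higher beside 53.9%; that share was 47.3% with quantile normalisation, 46.2% with median centring, 49.6% with the replicate block and 46.7% with all 12 arrays in 1 fit (1206 higher and 1379 lower). No filter on dim probes gave 1055 lower. Leaving out 1 array gave 1499 to 4016 calls, 963 to 2615 higher and 536 to 1401 lower: 1828, 1499 and 1605 calls without beclomethasone replicates 1, 2 and 3, 2257 and 2284 without DMSO replicates 1 and 2, and 4016 without DMSO replicate 3. The stage difference was called for 5791 features with normexp, 856 with replicate number as a block, and 683 (without 24 hpf beclomethasone replicate 2) to 3131 (without 24 hpf DMSO replicate 3) when 1 array was left out; the causes were not tested. *casq2*, not called at 72 hpf, differed by -0.0398 to 0.207 when single arrays were left out (the ends are without DMSO replicates 1 and 3) and by -0.15 under the slide block, and *tnni2b.2* by -0.00858 with median centring. Under the names of the deposited table all 157 signs turned. The number of arrays limits the precision, and genes with a group not well above background have only a bound.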

Other observations

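The cluster of *cyp8b1* genes did not move as one. While *cyp8b1.2* and *cyp8b1.3* rose by 3.37 and 4.46, *cyp8b1.1*, singled out after its values had been seen, had a level of -0.59 in treated embryos and 0.68 in DMSO embryos and fell by 1.27 ± 0.13 on the log2 scale (adjusted p = 0.00295 in limma, n = 3 each). In the *b3gnt3* cluster *b3gnt3.1* fell by 2.09, and *b3gnt3.4*, also chosen after its value had been seen, differed by 0.04 ± 0.20 and was not called. The probes of such close copies may bind transcripts of more than 1 member. Among the vitellogenin genes *vtg7* rose by 2.73 while *vtg5* and *vtg6* differed by 0.48 ± 0.23 and 0.60 ± 0.21 without a call.

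Some of the largest changes belonged to probes without a gene symbol in the annotation used here. The largest fitted rise was on probe A_15_P704961, at -2.13, -2.18 and -2.61 in treated embryos and not well above background on any DMSO array, which gives a rise of at least 15.3-fold. The largest fitted fall was on probe A_15_P761141, at -2.58, -4.11 and -4.85 in DMSO embryos and not well above background on any treated array, at least 5.08-fold lower with beclomethasone.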
